A study of Volvox carteri with 12 samples.

Results

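The loci described here are those that were abundant in the somatic cells of the green alga Volvox carteri and at least 10 times lower in its gonidia, the reproductive cells. Gene rows of 11 deposited expression tables were linked into loci by position, and a locus was selected on its measured values: a mean of at least 50 FPKM (mapped fragments relative to transcript length and library size, the authors' unit) over the 6 somatic tables, and a mean at least 10 times that of 3 gonidia tables, namely replicate C under UV-B and replicates A and C in white light. Of 9593 loci with 1 row in every table, 233 met the rule, which is 21.6% of the 1080 loci with a somatic mean of at least 50 FPKM. The difference between somatic cells and gonidia is therefore how the loci were chosen, and its size is given below only as a description.

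All cultures were wild type strain Eve10, taken after maturation and before embryogenesis, and grown vegetatively at 28 °C with 16 h of light daily, then 8 h of darkness, and an illumination near 100 µmol photons m-2 s-1. The 4 groups were somatic cells given narrowband UV-B for 1 h at 0.056 mW per square centimetre (n = 3), somatic cells in white light (n = 3), gonidia under the same UV-B (n = 2 used here) and gonidia in white light (n = 3). The replicates of a group, called biological by the labels, carry the letters A, B and C. The question put to the somatic loci was how a short UV-B exposure moved them, which the selection rule did not use.

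A Volvox spheroid has a surface layer of small somatic cells, each bearing flagella, and a few large gonidia inside it. Somatic cells swim, steer the spheroid towards light, secrete extracellular matrix and finally die without dividing, whereas gonidia lack that motile role and divide to form the next generation of spheroids. In somatic cells the transcriptional regulator regA holds back growth and reproduction. UV-B is perceived in plants and in the related unicellular alga Chlamydomonas by the receptor UVR8, which alters transcription. These genes could not be looked up among the selected loci. None of the 141 reference IDs that the loci carried was found among the 14334 genes of the RefSeq table at hand. No marker could be used to check the cell type labels, and no function is given to any locus. Loci are named by scaffold and position, and by their reference ID where there is one. The position joins the most frequent start and the most frequent end over the tables, taken separately (the lowest on ties). It need not be the span of most tables. The genome build is not given in the sources used here.

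The 233 loci had somatic means between 50.07 and 3925 FPKM, with a median of 116 FPKM. A somatic mean under 100 FPKM was found for 94 loci, one from 100 to under 500 FPKM for 118, and one of 500 FPKM or more for 21. The somatic mean was a median of 29.8 times the gonidial mean: it was 10 to 20 times as high at 69 loci, 20 to 50 times at 127 and 50 times or more at 37. In this last class, 2 loci were listed at 0 in all 3 gonidia tables of the rule.

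Levels in single libraries are given from here on as scaled FPKM, the deposited FPKM divided by a factor for each library (median of ratios). Each locus was also expressed as a percentage of its own mean over the 6 somatic libraries. The median over the 233 loci was 94.2%, 85.3% and 85.3% in UV-B somatic replicates A, B and C, against 116.6%, 107.6% and 107.4% in white-light somatic replicates A, B and C. All 3 UV-B medians lay below all 3 white-light medians. In gonidia the median was 18.4% in replicate B and 2.51% in replicate C under UV-B, against 4.81%, 19.2% and 2.58% in white-light replicates A, B and C. At these loci the replicate B libraries of both light conditions thus stood apart from the other gonidia. At 228 of the 233 loci both B libraries were above the other 3 gonidia libraries, and white-light gonidia A was above both C libraries at 213. The rule asked for a low mean in those other 3 libraries and set no limit on the B libraries. The selection itself therefore favoured B above them. Somatic libraries of replicate B did not stand apart in this way: both were above the other 4 somatic libraries at 18 loci and below them at 22. No share over all loci is given beside these counts, so they do not show whether the order is particular to the selected loci. At 232 loci all 6 somatic libraries were above all 5 gonidia libraries. The rule had largely fixed this order in advance for the 3 gonidia libraries it used, though not for the B libraries. In bulk RNA, fewer cells of a type and less RNA per cell cannot be told apart, and whether somatic cells remained in the gonidia preparations was not tested.

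**Figure D1:**
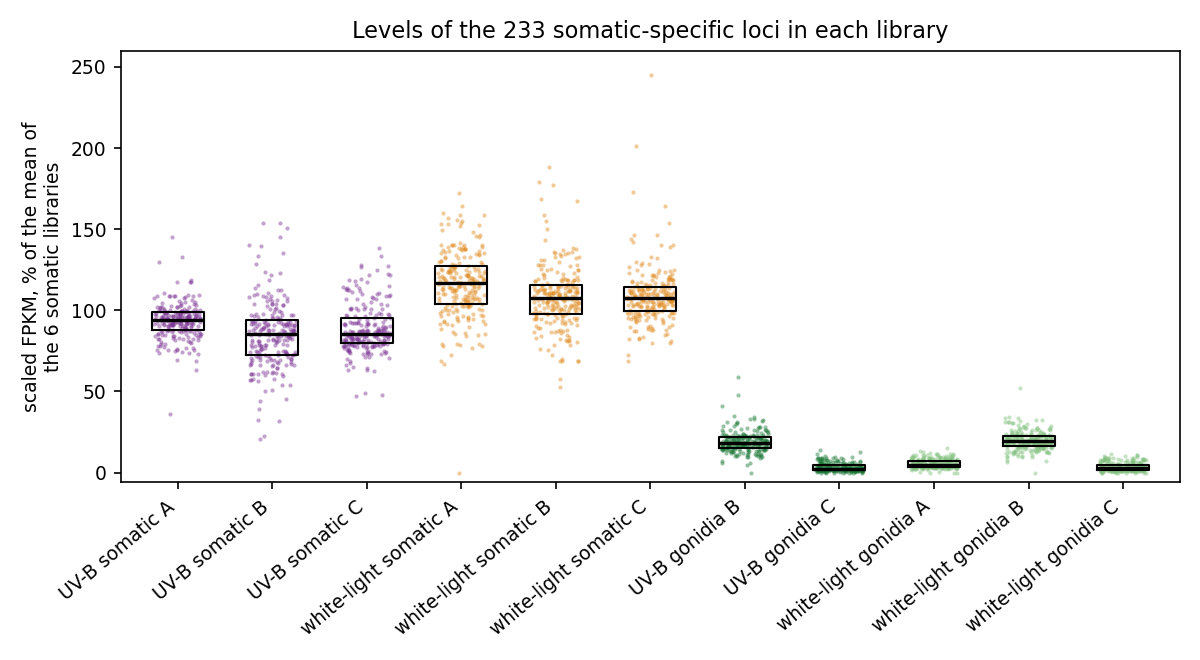
Level of each of the 233 loci (points) in each of the 11 libraries, as scaled FPKM in percent of the mean of the 6 somatic libraries. Boxes show the median and quartiles: the UV-B somatic medians (94.2%, 85.3% and 85.3%) lie below the white-light somatic medians, and the gonidia B libraries (18.4% under UV-B and 19.2% in white light) lie above the other gonidia.

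Together the loci made up 7.89%, 10.5% and 7.91% of the summed scaled FPKM of all matched loci in UV-B somatic replicates A, B and C, against 9.09%, 11.2% and 9.50% in white-light somatic replicates A, B and C. The UV-B share was below the white-light share of the same letter in all 3 pairs, while the ranges of the groups overlapped. In gonidia the share was 2.06% in replicate B and 0.149% in replicate C under UV-B, against 0.421%, 2.03% and 0.177% in white-light replicates A, B and C. The 10 most abundant loci held 34.1% to 37.6% of the loci's sum in the somatic libraries.

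The tables list no fragment numbers. The authors' 95% confidence limits for each value correspond, if they reflect counting alone, to a median of 2382 to 3172 fragments per locus in the somatic libraries, with limits a median of 3.55% to 4.10% away from the value. In gonidia the same reckoning gave 1666 fragments in replicate B and 243 in replicate C under UV-B, against 550, 1572 and 410 in white-light replicates A, B and C. Differences of a few percent at one locus in one library are within these limits.

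The most abundant locus, at scaffold 7, 3337168 to 3339514, carried no reference ID. Its levels were 3466, 4013 and 4254 scaled FPKM in UV-B somatic replicates A, B and C, against 3786, 4532 and 4265 in white-light somatic replicates A, B and C. The groups overlapped. In gonidia it had 747 and 112 under UV-B in replicates B and C, against 184, 732 and 122 in white-light replicates A, B and C, so replicate B was high in both light conditions.

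The second, Vocar20008916m.g.2.0 (scaffold 1, 11787088 to 11788949), had 3374, 3594 and 3638 scaled FPKM in UV-B somatic replicates A, B and C, against 4276, 4444 and 4513 in white-light somatic replicates A, B and C. Every UV-B library was below every white-light library, and the spread within each group was small: the means were 3535 ± 141 under UV-B and 4411 ± 122 in white light (SD, n = 3 each). The third, Vocar20006546m.g.2.0 (scaffold 7, 1947943 to 1950484), had 2937, 2944 and 2702 in UV-B somatic replicates A, B and C, against 3712, 3192 and 3571 in white-light somatic replicates A, B and C, again with no overlap. It lay close to the edge of the rule, with a somatic mean 10.7 times the gonidial one.

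The fourth, Vocar20012413m.g.2.0 (scaffold 32, 1399706 to 1403755), had the most negative log2 difference of the 10 most abundant loci. It had 1719, 1353 and 1663 scaled FPKM in UV-B somatic replicates A, B and C, against 2407, 2021 and 2403 in white-light somatic replicates A, B and C, a log2 difference of -0.53 ± 0.86 (SE). In all 11 tables another row, listed at 0, covered 64.6% of its span, so fragments may have been divided between the rows in a way that the tables do not show.

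The other 6 of the 10 most abundant loci overlapped between the light conditions, with log2 differences from -0.10 to 0.06. They were Vocar20010784m.g.2.0 (scaffold 4, 2026660 to 2031989), Vocar20007017m.g.2.0 (scaffold 70, 44724 to 50369), Vocar20012905m.g.2.0 (scaffold 3, 4132289 to 4134297), the locus at scaffold 2, 4190948 to 4198020, Vocar20008447m.g.2.0 (scaffold 1, 804112 to 805491) and Vocar20013664m.g.2.0 (scaffold 59, 365321 to 366819). Vocar20012905m.g.2.0 averaged 1289 ± 202 scaled FPKM under UV-B and 1290 ± 168 in white light (SD, n = 3 each). Vocar20008447m.g.2.0 averaged 1063 ± 147 under UV-B and 1019 ± 144 in white light (SD, n = 3 each).

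At the lower edge, the locus at scaffold 1, 9011986 to 9021466, had a somatic mean of 50.07 FPKM and that at scaffold 11, 3021897 to 3025259, one of 50.16 FPKM. Just outside lay scaffold 57, 170336 to 178135, with 49.9 FPKM and scaffold 38, 948820 to 949578, with 49.7 FPKM. Closest to the ratio threshold were Vocar20001260m.g.2.0 (scaffold 24, 267122 to 269263), 10.05 times as high in somatic cells, and the locus at scaffold 55, 41787 to 45478, 10.1 times. Just outside lay scaffold 5, 1473176 to 1476295, with a ratio of 9.85, and scaffold 9, 1549824 to 1553863, with 9.66.

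In somatic cells the selected loci were lower under UV-B than in white light by a small and widely shared amount. Their median level under UV-B was 81.0% of that in white light, against 97.0% over all 7540 loci tested. On the scale of log2(scaled FPKM + 1), used for all differences below, the median difference of UV-B minus white light was -0.31, with quartiles of -0.48 and -0.15, against a median of -0.03 over all loci tested. The difference was negative at 215 of the 233 loci (92.3%), against 56.3% of all loci tested. No single locus passed the test: with limma over all 7540 loci and 4 groups, 0 of the 233 were lower at an adjusted p under 0.05 (0.00% of all loci tested) and 0 were higher (0.0796% of all loci tested). The lowest adjusted p among them was 0.85, and at an unadjusted p under 0.05 there was 1 lower and 0 higher, against 1.92% lower and 2.68% higher over all loci tested. In this fit the 233 loci were thus called no more often than loci in general. All 233 had passed the filter on low values.

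At 111 of the 233 loci (47.6%) all 3 UV-B somatic libraries were below all 3 white-light somatic libraries, against 8.49% of all loci tested. At 2 loci (0.858%) they were all above, against 4.56% of all loci tested. These counts depended on the scaling, because a library's factor moves all its loci at once. With FPKM as deposited the 2 counts were 65 and 1, against 4.91% below and 6.82% above over all loci tested, and the median difference was -0.20, beside 0.05 over all loci. With quantile normalization they were 69 and 1, against 6.67% and 4.83%, with a median of -0.17, beside -0.00 over all loci. The selected loci were negative at 191 and 188 of 233 under these 2 scalings, so the lower side held most of them under each.

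The replicate letters paired the somatic libraries, since libraries of the same letter deviated from their group means together. Within letters, the median difference over the 233 loci was -0.30 in A, -0.30 in B and -0.32 in C, against -0.04, -0.03 and -0.03 over all loci tested. The UV-B library was the lower one of the pair at 212 loci in A (91.0%), 207 in B (88.8%) and 202 in C (86.7%). The shares over all loci tested were 56.9%, 53.1% and 55.3%. The UV-B library was lower in all 3 pairs at 180 loci, against 26.8% of all loci tested. It was higher in all 3 at 7, against 16.0% of all loci tested. With the letter within each cell type as a block in limma, 142 of the 233 were lower at an unadjusted p under 0.05, against 12.1% of all loci tested, and 3 were higher, against 6.31%. With this replicate block 0 passed the adjusted threshold, the lowest adjusted p being 0.0885. That value was shared by several loci, among them Vocar20012413m.g.2.0.

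**Figure D2:**
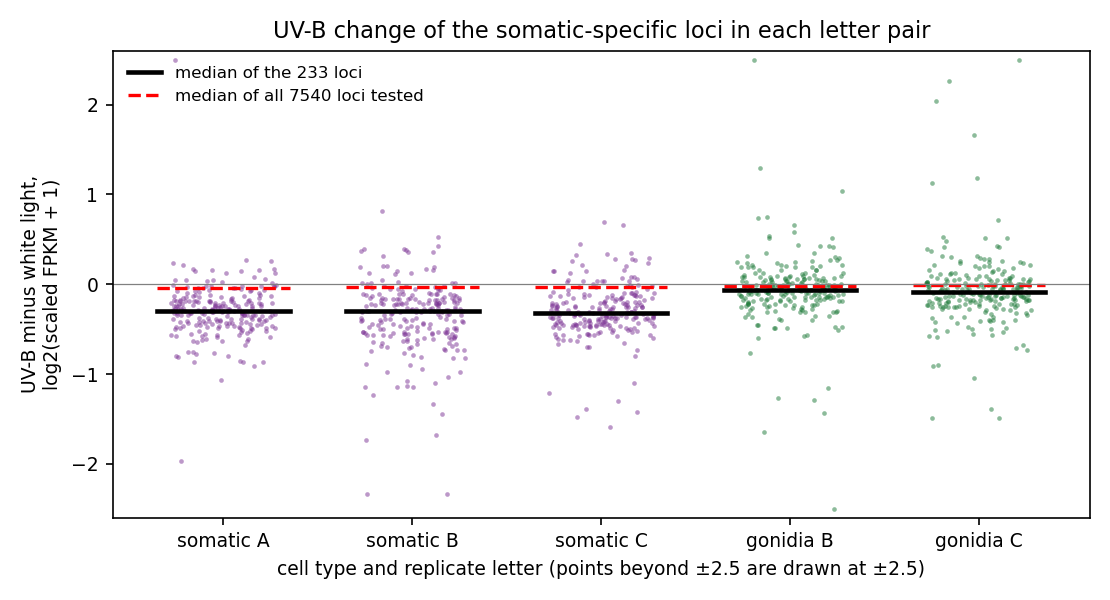
UV-B minus white light on the log2(scaled FPKM + 1) scale within each letter pair for the 233 loci (points), with their median (black) and the median of all 7540 loci tested (dashed red). The medians of the 233 loci are -0.30, -0.30 and -0.32 in somatic pairs A, B and C, and -0.07 and -0.09 in gonidia pairs B and C.

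The width of the test without the block came largely from the gonidia, since 1 spread per locus was estimated from all 4 groups. The median SD of the 233 loci on the log2 scale was 0.19 among UV-B somatic libraries and 0.18 among white-light somatic libraries, against 1.29 over the 5 gonidia libraries, where the B libraries stood apart. The median SE of the UV-B difference was 0.70. Without both gonidia B libraries it was 0.22, and 42 of the 233 loci were lower and 0 higher at an unadjusted p under 0.05, against 4.48% lower and 3.36% higher over all 7300 loci of that fit, with 0 of the 233 past the adjusted threshold and a lowest adjusted p of 0.319. With somatic libraries only, 53 were lower and 2 higher at an unadjusted p under 0.05, against 3.85% lower and 3.54% higher over all 6471 loci of that fit, again with 0 past the adjusted threshold.

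Other abundant loci did not show the same median. Loci with a somatic mean of at least 50 FPKM outside the rule numbered 847, with a median UV-B difference of -0.05 in somatic cells and 74 (8.74%) whose UV-B libraries were all below. The 143 tested loci abundant in gonidia and at least 10 times lower in somatic cells had a median of -0.10, and 1 of them had UV-B libraries all below. For 251 loci at like levels in both cell types, within 1.5 times, the median was -0.02 and 13 had UV-B libraries all below. No test of one list of loci against another was made.

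Sorted by the ratio of somatic to gonidial mean, abundant loci had their lowest medians at the somatic end. The median UV-B difference in somatic cells was -0.10 for ratios under 0.1, -0.08 from 0.1 to 0.5, -0.01 from 0.5 to 1, -0.04 from 1 to 2, -0.10 from 2 to 5 and -0.14 from 5 to 10. Within the selected loci it was -0.29 for ratios from 10 to 20 (69 loci), -0.32 from 20 to 30 (47 loci), -0.33 from 30 to 50 (80 loci) and -0.24 at 50 or more (37 loci). The classes inside the rule therefore differed little among themselves, and their quartiles overlapped.

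Sorted by level, the selected loci differed more. The median difference was -0.39 for somatic means from 50 to 75 FPKM (54 loci) and from 75 to 100 FPKM (40 loci), -0.32 from 100 to 150 FPKM (54 loci), -0.22 from 150 to 300 FPKM (46 loci) and -0.13 at 300 FPKM or more (39 loci). In the same level classes the other abundant loci had medians of -0.09, -0.08, -0.09, -0.04 and -0.03, so the selected loci had the lower median in each class. The UV-B libraries were all below the white-light libraries at 55.6% of the selected loci in the lowest class and at 25.6% in the highest.

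**Figure D3:**
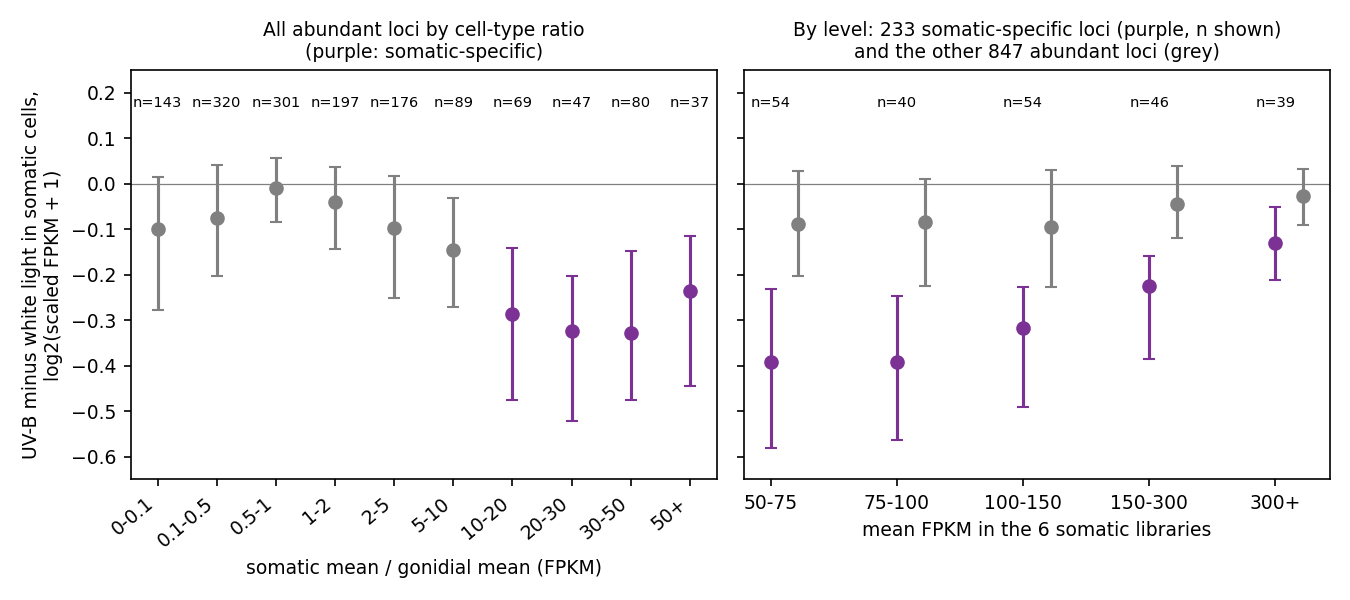
Median (points) and quartiles (bars) of UV-B minus white light in somatic cells, on the log2(scaled FPKM + 1) scale. Left, abundant loci by the ratio of somatic to gonidial mean FPKM, with the selected loci at ratios of 10 and above in purple; right, selected loci (purple) and the other abundant loci (grey) by somatic mean FPKM, where the purple medians run from -0.39 in the lowest class to -0.13 in the highest.

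The loci also kept a similar order of UV-B difference from pair to pair. Across the 233 loci the differences in letter pairs correlated at a Spearman rho of 0.62 between A and B, 0.62 between A and C and 0.53 between B and C, against 0.32, 0.31 and 0.24 over all loci tested. Pearson's r over the 233 loci was 0.31, 0.10 and 0.35. The values with pair A include 1 locus listed at 0 in white-light somatic A. The pairs come from different libraries but share the loci, their levels and the scaling, so these values describe the data and carry no test.

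The 5 loci with the most negative difference among those without overlap were all under 130 FPKM in somatic cells, and 2 of them were lower by at least 2-fold on the log2 scale. The locus at scaffold 3, 3823337 to 3830265, had 25.8, 27.7 and 71.5 scaled FPKM in UV-B somatic replicates A, B and C, against 104, 94.4 and 102 in white-light somatic replicates A, B and C. The low values of UV-B replicates A and B came with longer rows, ending at 3831423 and 3831419, whereas the row of UV-B replicate C ended at 3830339. Its log2 difference was -1.40 ± 0.80 (SE), with an adjusted p of 1 in limma and, within the letter block, 0.160.

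The locus at scaffold 35, 119623 to 122179, had 130.6, 29.9 and 118 scaled FPKM in UV-B somatic replicates A, B and C, against 194, 155 and 158 in white-light somatic replicates A, B and C. Replicate B under UV-B was the low one, and its row again ran on, to 122688. A longer row covered 87.6% of the locus in most tables, and how fragments were divided between the rows is not shown. The log2 difference was -1.11 ± 0.64 (SE) with an adjusted p of 1.

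The remaining 3 had rows of nearly constant span, although other rows covered up to 26.7% of the locus on scaffold 55 and up to 32.7% of that on scaffold 26. The locus at scaffold 55, 41787 to 45478, had 53.7, 39.7 and 45.5 scaled FPKM in UV-B somatic replicates A, B and C, against 63.7, 94.7 and 120.6 in white-light somatic replicates A, B and C. It was the only one of the 233 with an unadjusted p under 0.05 in limma (log2 difference -0.95 ± 0.31, SE), and its limma adjusted p over all loci was 0.85. Vocar20009092m.g.2.0 (scaffold 1, 4658261 to 4658976) had 73.5, 40.4 and 55.6 in UV-B somatic replicates A, B and C, against 128, 103 and 82.9 in white-light somatic replicates A, B and C. The locus at scaffold 26, 829818 to 835209, had 80.8, 51.9 and 68.5 in UV-B somatic replicates A, B and C, against 152, 103 and 120 in white-light somatic replicates A, B and C. There the cover by another row was 31.9% in all 3 UV-B somatic libraries and in white-light somatic B. In white-light somatic A and C it was 0.927% and 0.946%. Whether this bears on the difference was not tested. Replicate B was the lowest UV-B library at all 3 of these loci.

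Only 2 loci had all UV-B libraries above all white-light libraries. The locus at scaffold 19, 1749708 to 1752823, had 568, 654 and 521 scaled FPKM in UV-B somatic replicates A, B and C, against 475, 488 and 466 in white-light somatic replicates A, B and C (log2 difference 0.28 ± 0.70 (SE), adjusted p = 1 in limma). The locus at scaffold 35, 314245 to 317770, had 66.3, 64.7 and 74.1 in UV-B somatic replicates A, B and C, against 59.6, 51.7 and 61.97 in white-light somatic replicates A, B and C. It was one of the 2 loci listed at 0 in gonidia: its rows in UV-B gonidia C and white-light gonidia A and C began at 315146 and a neighbouring row, overlapping them by 50, 46 and 38 bases, held 120, 145 and 134 FPKM as deposited in these libraries. Its specificity to somatic cells thus coincided with a different division of the region into rows.

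**Figure D4:**
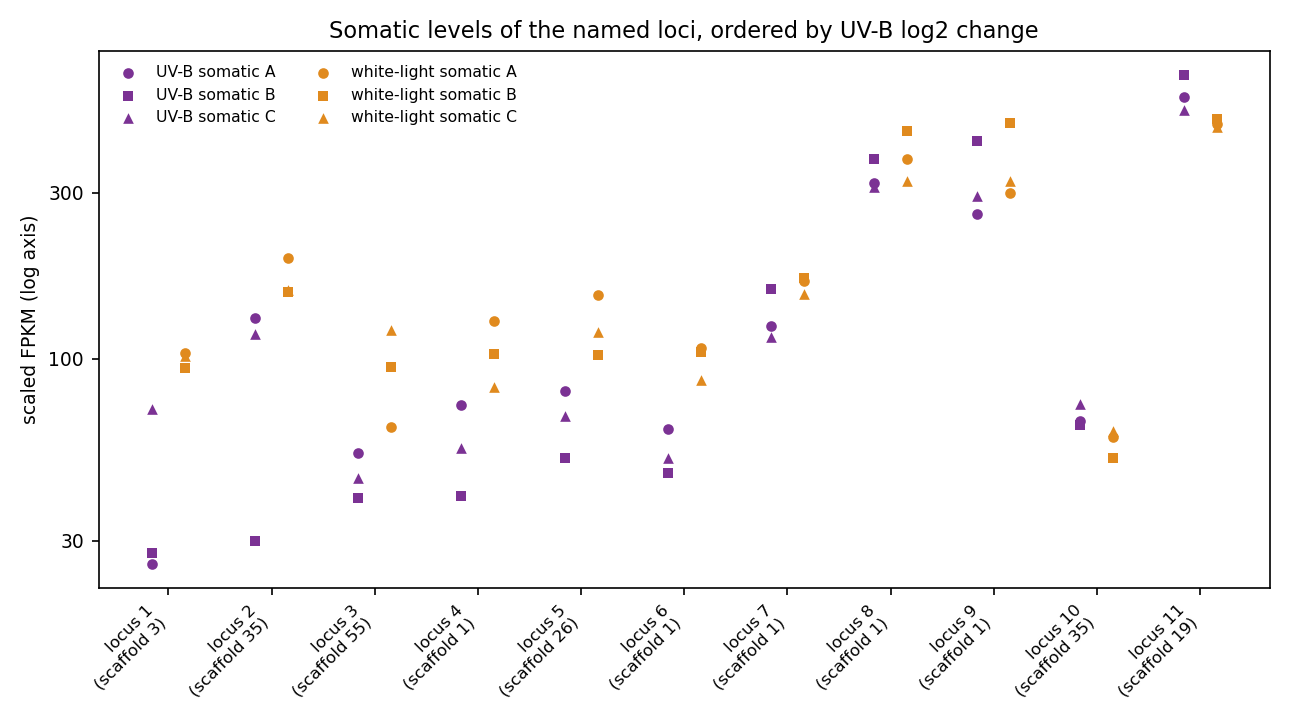
Scaled FPKM (log axis) in the 3 UV-B somatic libraries (purple, left) and the 3 white-light somatic libraries (orange, right) of 11 loci ordered by UV-B log2 difference: loci 1 to 5 are the most negative without overlap, loci 6 to 9 the run of 4 neighbours on scaffold 1, and loci 10 and 11 the 2 with all UV-B libraries above. At loci 1 to 6 all purple points lie below all orange points.

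A single locus, named after its values were seen, lay outside the range of the others, with a log2 difference of 2.36 ± 1.78 (SE; adjusted p = 1 in limma) that includes a library listed at 0. Vocar20014595m.g.2.0 (scaffold 27, 1128933 to 1129638) had 190.4, 185 and 124 scaled FPKM in UV-B somatic replicates A, B and C, against 0, 162 and 201 in white-light somatic replicates A, B and C. It was also listed at 0 in UV-B gonidia B, against 39.1 in white-light gonidia B. It was the only selected locus at 0 in a somatic library.

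The gonidia B libraries were not used by the rule, but they are given here relative to the somatic mean, which was, so the values describe the loci and test nothing. On scaled FPKM the mean of the UV-B and white-light B libraries was a median of 18.7% of the somatic mean, with quartiles of 16.5% and 22.3%, and 25.4% on FPKM as deposited. It lay between 10% and 30% at 220 loci, under 10% at 5 and at 30% or more at 8. The somatic levels of these loci ranged from 50.07 to 3925 FPKM. No other list of loci is set beside these shares, so whether their range is narrow was not tested. With all 5 gonidia libraries in the gonidial mean, 48 loci would meet the rule instead of 233.

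The highest share was that of Vocar20008447m.g.2.0 (scaffold 1, 804112 to 805491). It had 615 scaled FPKM in UV-B gonidia B and 47.0 in UV-B gonidia C, against 73.3, 540 and 44.0 in white-light gonidia A, B and C, so replicate B reached 55.5% of the somatic mean. The loci at scaffold 35, 314245 to 317770, and scaffold 2, 4190948 to 4198020, followed at 37.3% and 34.3%. At the locus on scaffold 2 the other gonidia were between 19.4 and 38.9 scaled FPKM.

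The lowest share, 6.21%, belonged to the locus at scaffold 3, 412632 to 429500. It had 10.7 scaled FPKM in UV-B gonidia B and 9.49 in UV-B gonidia C, against 10.7, 10.99 and 18.7 in white-light gonidia A, B and C, so that replicate B was not above the other gonidia. Its row in UV-B somatic B also ran to 430636, and that library had 36.6 scaled FPKM, against 190.0 and 201 in UV-B somatic A and C. The rows of the gonidia libraries ran on too, to between 430628 and 431711, whereas those of the other somatic libraries ended at 429500. Low values at this locus thus came with longer rows in both cell types, and the part of row drawing was not tested. The loci at scaffold 21, 76994 to 78997, and scaffold 34, 802417 to 838485, had 7.22% and 8.67%.

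Loci high in replicate B in one light condition tended to be high in the other. The percentage of the somatic mean in UV-B gonidia B and in white-light gonidia B correlated over the 233 loci at a Spearman rho of 0.66 (Pearson's r 0.60), and that in UV-B gonidia C and white-light gonidia C at 0.87 (r 0.86). Replicates B and C correlated at a rho of 0.35 under UV-B, and in white light at 0.39. White-light replicate A correlated at 0.83 with white-light C, at 0.76 with UV-B C and at 0.42 with white-light B. These are descriptions across loci that share the somatic mean as divisor.

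**Figure D5:**
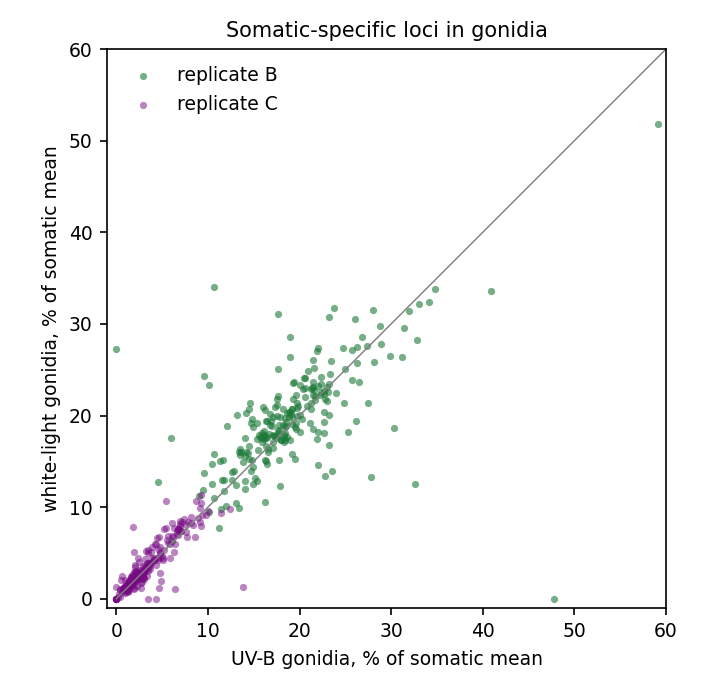
Scaled FPKM of the 233 loci in UV-B gonidia (horizontal) and white-light gonidia (vertical), in percent of the somatic mean, for replicate B (green) and replicate C (purple), with the line of equality. Replicate B lies mostly between 10% and 30% on both axes and replicate C mostly under 10%; the green point highest on both axes is Vocar20008447m.g.2.0.

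The UV-B difference within gonidia was small in each letter pair. The median over the 233 loci was -0.07 in pair B, with 149 loci lower (63.9%), against -0.01 and 53.5% over all loci tested. In pair C it was -0.09, with 151 lower (64.8%), against -0.01 and 51.5% over all loci tested. Replicate C and white-light replicate A entered the rule, so neither pair C nor the limma values below are independent of it. In limma without the block the median was 0.10, and 0 of the 233 passed the adjusted threshold in either direction (0.0133% of all loci tested were lower), with 0 lower and 1 higher at an unadjusted p under 0.05, against 0.836% and 0.955% of all loci tested. This value rested on single libraries: the median was -1.11 without UV-B gonidia B, 1.33 without UV-B gonidia C, -0.07 without white-light gonidia A, 0.80 without white-light gonidia B and -0.41 without white-light gonidia C. The UV-B group held 1 library of each of these letters, of which B was high. With the replicate block the median was -0.06.

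The UV-B difference in somatic cells minus that in gonidia was tested as an interaction. Its gonidia side includes replicate C and white-light replicate A, which entered the rule, so the interaction is not independent of the selection. Its median was -0.40 over the 233 loci without the block and -0.22 with it, and 0 passed the adjusted threshold (0.0398% of all loci tested were more positive in somatic cells), with 1 less positive at an unadjusted p under 0.05 without the block (0.955% of all loci tested) and 49 with it (4.20%). Without the block the median rested on single gonidia libraries: it was 0.85 without UV-B gonidia B, -1.71 without UV-B gonidia C, -0.21 without white-light gonidia A, -1.15 without white-light gonidia B and 0.10 without white-light gonidia C. A difference between the cell types in the response to UV-B was therefore not shown for any single locus. The UV-B library was lower in all 3 somatic pairs and in both gonidia pairs at 92 loci. It was lower in the somatic pairs but higher in both gonidia pairs at 17. No shares over all loci are given for these counts, which therefore describe the selected loci only. Across loci, the difference in gonidia pair B correlated with those in somatic pairs A, B and C at a Spearman rho of 0.50, 0.47 and 0.46, against 0.15, 0.16 and 0.13 over all loci tested. Pearson's r over the 233 loci was -0.45, 0.14 and 0.29, so pair A had the opposite sign on this measure, which includes the locus listed at 0 in white-light somatic A and UV-B gonidia B. For gonidia pair C rho was 0.15, 0.14 and 0.11. Whether somatic RNA in the B preparations accounts for this likeness was not tested.

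Calls appeared at 2 loci only when gonidia libraries were left out. Vocar20005452m.g.2.0 (scaffold 11, 1600149 to 1600910) had 32.2 scaled FPKM in UV-B gonidia B and was listed at 0 in UV-B gonidia C and in white-light gonidia A, B and C, beside 57.3 to 96.6 in somatic cells. It passed the gonidia test without UV-B gonidia C (adjusted p = 0.000256 in limma), where 1 UV-B library was left against white-light libraries of which A and C had entered the rule. The locus at scaffold 34, 802417 to 838485, had 4.28 and 12.8 in UV-B gonidia B and C, against 0.167, 11.9 and 1.15 in white-light gonidia A, B and C, and passed without both B libraries (log2 difference 3.05, adjusted p = 0.0223 in limma). That fit sets 1 UV-B library against 2 white-light libraries, all 3 of which chose the loci. In both fits the spread of the single UV-B library is borrowed from the other groups, so neither call is a replicated result.

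The selected loci were spread over 60 of the 207 scaffolds that held matched loci. Scaffold 1 held 27 of them among 1144 matched loci and scaffold 3 held 12 among 344, while scaffold 24 held 9 among 165, or 5.45%. A neighbour within 10 kb that was also selected was found for 43 loci (18.5%), in 15 runs of 2, 3 runs of 3 and 1 run of 4. The share with such a neighbour of the same list was 11.9% for the loci abundant in gonidia, 10.4% for those at like levels, 30.0% for the other 847 loci with a somatic mean of at least 50 FPKM and 87.5% for all loci tested. These lists differ in length, which bears on how often neighbours occur, and the shares were not tested.

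The run of 4 lay on scaffold 1, at 10345689 to 10350154, 10356901 to 10361598, 10362999 to 10366240 (Vocar20009976m.g.2.0) and 10366557 to 10367297 (Vocar20009101m.g.2.0). The last of these had 62.8, 46.9 and 51.7 scaled FPKM in UV-B somatic replicates A, B and C, against 107.5, 104 and 86.7 in white-light somatic replicates A, B and C, with no overlap and a log2 difference of -0.88 ± 0.77 (SE; adjusted p = 1 in limma, 0.0910 within the letter block). The first 3 overlapped between the light conditions, with differences of -0.19, -0.17 and -0.31. At all 4 the UV-B library was the lower one of each letter pair.

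The run on scaffold 6, at 1151769 to 1153416, 1153366 to 1154127 (Vocar20014212m.g.2.0) and 1154077 to 1155075, was of low level, with somatic means of 54.9, 76.6 and 65.5 FPKM. Adjacent rows of this run overlapped, so their values may share fragments. The run on scaffold 3 began at 4126148 and ended at 4143654 and held Vocar20012905m.g.2.0, one of the 10 most abundant loci. The third, on scaffold 32, ran from 1175712 to 1194432, and at its locus Vocar20012426m.g.2.0 the means were 168 ± 7.68 scaled FPKM under UV-B and 183 ± 2.52 in white light (SD, n = 3 each), without overlap.

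The spans of the selected loci ranged from 449 to 36069 bases with a median of 5185, close to the median of 4834 over all loci tested. The loci abundant in gonidia had a median span of 1660 bases and those at like levels one of 2335. A reference ID in at least 1 table was found for 141 of the selected loci (60.5%), against 60.7% of the other loci with a somatic mean of at least 50 FPKM and 48.9% of all loci tested, but only 7 carried it in all 11 tables. The median UV-B difference in somatic cells was -0.31 for the 141 with an ID and -0.30 for the 92 without.

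The way rows were drawn differed among libraries. At 65 loci the span was the same in all 11 tables, and at 71 it differed by more than 10%. Another row covered more than 10% of the span in at least 1 table at 98 loci and in none at 135. The median UV-B difference was -0.24 at the 65 loci of constant span, of which 32 had all UV-B libraries below, and -0.29 at the 135 loci free of such cover, of which 70 did. A constant span does not mean that no other row overlaps, as Vocar20012413m.g.2.0 shows. The part of row drawing in the UV-B difference was not tested.

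Replicate A of the UV-B gonidia was not used, as all of its 4073 reference rows in the table were at 0. Of the 233 loci 229 had a matching row there, 50 of these were above 0, and none exceeded 3.12 FPKM.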

How the data were processed

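Polyadenylated RNA was sequenced from 12 samples, and 1 table of gene-level FPKM per sample was used, as the authors deposited it. Per the submitters' processing notes the reads went through TopHat2 (version 2), Cufflinks 2.0.1 and Cuffdiff 2; neither genome build nor annotation is given in the sources used here. The tables hold no fragment numbers, so the depth is unknown apart from the authors' 95% confidence limits. They cover only the estimation of each value, not the spread between cultures.

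Rows were assembled separately in each table and share few IDs. They were therefore linked by position, at an overlap of at least 80% of the longer row, and kept when each of 11 tables held exactly 1. Replicate A of the UV-B gonidia was left out, although its sample had been planned into the fits. Selection used FPKM as deposited. For tests, a median-of-ratios factor scaled each library, and the 7540 loci that reached 1 FPKM in 3 or more libraries were kept; limma 3.58.1 (R 4.3.3) then modelled log2(scaled FPKM + 1) in 4 groups, with Benjamini-Hochberg adjustment over all loci tested. Adding 1 understates the change of low loci. The fit was also run on simulated data with independent noise and 1 spread per locus in all groups. Those data had neither the wider spread of the selected loci in gonidia nor the pairing by letter. The run therefore cannot show how the fit does under these.

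Same-letter libraries paired the somatic samples: their deviations from the group means correlated at 0.351 (A), 0.447 (B) and 0.202 (C), and in gonidia at 0.705 (B) and 0.624 (C), where n = 2 in the UV-B group makes these less informative. A fit with the letter within each cell type as a block was the alternative. Others were a pseudocount of 0.1, no filter, other scalings, library weights, each replicate left out, other match overlaps and other thresholds of the rule.

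Named loci are the 10 with the highest somatic mean, up to 5 per direction with the largest UV-B difference without overlap, the 3 highest and 3 lowest in the gonidia B libraries, those next to a threshold, those called in a test and the longest run of neighbours; other named loci were chosen after their values were seen. The loci, lists and rules were chosen with earlier results of these data known. Tables and figures were made with Python 3.11.15, pandas 2.3.3, numpy 2.4.6 and matplotlib 3.10.9.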

Additional observations from a re-analysis of the deposited data

Results flagged for a closer look

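At 3 named loci the UV-B library was lower than the white-light library in every somatic letter pair and higher in both gonidia letter pairs. The UV-B difference in somatic cells minus that in gonidia was -0.48 on the log2 scale at Vocar20007017m.g.2.0 (scaffold 70, 44724 to 50369), -0.54 at Vocar20013664m.g.2.0 (scaffold 59, 365321 to 366819) and -3.25 at scaffold 3, 3823337 to 3830265. With the letter block these values were -0.19, -0.21 and -2.20. In limma's interaction test each had an adjusted p of 0.9996, so a difference between the cell types was not shown at any of the 3. White-light gonidia A has no UV-B partner here and enters these values without a pair. It and the gonidia C libraries also entered the rule, so these values are not independent of the selection. At the locus on scaffold 3 the rows of UV-B somatic A and B were longer than the others, and the row of white-light gonidia A was listed at 0. The same pattern of signs was found at 17 of the 233 loci, and no share over all loci is given beside this count.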

How the results depend on the processing

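The number of selected loci moved with the rule: 139 had a somatic mean of at least 100 FPKM, 371 one of at least 20 FPKM, and 48 met the rule with all 5 gonidia libraries in the gonidial mean. The count of loci past the adjusted threshold for UV-B in somatic cells was 0 in all 21 alternatives, and the median difference was negative in each. It was -0.20 with FPKM as deposited and -0.17 with quantile normalization, where 65 and 69 loci had UV-B libraries all below and 1 and 1 all above. Leaving out 1 library at a time, the median ran between -0.35 and -0.27, the count all below between 109 and 144, and the count all above between 2 and 4, with 4 without UV-B somatic A and without white-light somatic B. With the replicate block, which follows the pairing by letter, the median stayed at -0.31 and 0 loci passed (lowest adjusted p 0.0885). The block fitted to the somatic libraries alone, an alternative chosen after seeing the data, also gave 0 (lowest adjusted p 0.1498).

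In gonidia, 1 locus passed the UV-B test without both B libraries, and so did 1 in the interaction; leaving out single libraries gave between 0 and 1 in each. These calls set a single UV-B gonidia library, assumed to vary like the other groups, against white-light libraries that in part chose the loci. The level in the gonidia B libraries was a median of 25.4% of the somatic mean on FPKM as deposited and 18.7% on scaled FPKM. Depth is known only through the authors' confidence limits, which were widest in the gonidia C libraries, and the causes of these shifts were not tested.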
